A study of Drosophila melanogaster with 10 samples.

Results

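The enzymes described here release and break down sugar in the fly head, and one of them diverts a glycolytic intermediate to glycerol phosphate. The set names 10 genes, chosen by pathway except for Gpdh1 and Treh, which were selected on their signals because these followed the origin of the second chromosome. Of the 10, 7 had a probe set assigned to a single gene, 1 probe set each, out of 10844 genes with such a probe set among the 14010 probe sets on the array. These were Gpdh1 and Eno on chromosome arm 2L, Treh, Pgi, Pfk and Gapdh1 on 2R, and Ald1 on 3R. Tpi was covered only by a probe set shared with CG1607, and Gapdh2 and Pyk (current symbol PyK) were not analysed here.

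Flies carry most of their blood sugar as trehalose, and trehalase (Treh) cuts it into glucose at the cells that use it. Glycolysis then turns glucose into pyruvate in a chain of steps that includes Pgi, Pfk, aldolase (Ald1), triose phosphate isomerase (Tpi), glyceraldehyde-3-phosphate dehydrogenase (Gapdh1, Gapdh2), enolase (Eno) and pyruvate kinase (Pyk). Cytosolic glycerol-3-phosphate dehydrogenase (Gpdh1) draws dihydroxyacetone phosphate out of this chain, which restores NAD for glycolysis and supplies the glycerol backbone of lipids. In insect flight muscle its product feeds the glycerol phosphate shuttle to the mitochondria.

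Heads were taken from Drosophila melanogaster females that had mated (nonvirgin), aged 3 to 5 days, with 100 to 200 heads per sample, and the RNA of each sample was hybridised to 1 array. The strain Z30 had 2 arrays (Z30 1 and Z30 2), the chromosome substitution lines MZM, MZZ, ZZM, MMZ, ZMM and ZMZ had 1 array each, and the strain Fr had 2 (Fr 1 and Fr 2). A line's name gives, letter by letter, where its X (the first chromosome), the second and the third came from, where Z stands for Z30 and M for Fr. For each of these chromosomes, 5 arrays carry the Z30 copy and 5 the Fr copy. No line had a replicate, and the labels do not give the source of the small remaining autosome or the mitochondria. Nothing says that the arrays of a strain came from separate cultures, so the p-values reflect at most how these arrays differ among themselves, and that spread may be technical.

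Signals are the deposited intensities on a linear scale. One probe set's signal is not set against another's, except in marker sums and in picking the brightest probe set of a gene. Bright probe sets weigh most in those sums. Arrays Z30 1 and Fr 1 stood apart: the brightest signal was 28895 on Z30 1 and 26039 on Fr 1, against 46285 to 59815 on the other 8. The geometric mean of 9 hybridisation control probe sets was 538 on Z30 1 and 651 on Fr 1, against 1500 to 2179 on the other 8. Some differences moved when either array was left out, and values without it are given for these. Defining markers of the head were present, with the photoreceptor arrestin gene Arr1 at 20768 to 37980 over the arrays. In whole heads, fewer cells of a type and less RNA per cell cannot be told apart.

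Gpdh1 was lower on every array with the second chromosome from Z30, the chromosome that carries the gene. Its signals were 1165 and 1977 on Z30 1 and Z30 2 and 1739, 2092 and 1583 in MZM, MZZ and ZZM, against 3451 and 5585 on Fr 1 and Fr 2 and 4588, 5562 and 5827 in MMZ, ZMM and ZMZ. The 2 groups did not overlap, and each group had its lowest signal on the array that stood apart, Z30 1 or Fr 1. The additive model, in which each chromosome's source adds its own effect on the log2 scale, gave a difference of -1.57 ± 0.23 (SE, 5 arrays against 5), or 2.96-fold lower. Because this pattern chose the gene, these values are a description and no test is given for them.

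The lower Gpdh1 signal appeared in every pair of genotypes that differed in the second chromosome alone. It was 2.52-fold lower in MZM than in Fr, 2.19-fold lower in MZZ than in MMZ, 3.51-fold lower in ZZM than in ZMM and 3.84-fold lower in Z30 than in ZMZ. Within the like-numbered parental arrays the log2 difference between Z30 and Fr was -1.57 for the arrays numbered 1 and -1.498 for those numbered 2. Leaving out single arrays kept the second chromosome's log2 difference between -1.68 and -1.45, and in the 6 lines alone it was -1.47.

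Treh went the other way with the same chromosome. Its signals were 5481 and 5687 on Z30 1 and Z30 2 and 5804, 6170 and 5694 in MZM, MZZ and ZZM, against 2580 and 2720 on Fr 1 and Fr 2 and 3185, 3433 and 3237 in MMZ, ZMM and ZMZ. The groups did not overlap, and the spread within each was small, with means of 5767 ± 254 for the Z30 chromosome and 3031 ± 363 for the Fr one (SD, n = 5 each). The additive model gave a log2 difference of 0.91 ± 0.15 (SE), again as a description, and the second chromosome carries this gene as well.

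Among the pairs that differed in the second chromosome alone, Treh was 2.19-fold higher in MZM than in Fr, 1.94-fold higher in MZZ than in MMZ, 1.66-fold higher in ZZM than in ZMM and 1.73-fold higher in Z30 than in ZMZ. The within-number differences of the parents were 1.09 and 1.06 log2 units. Without single arrays the second chromosome's difference ranged from 0.86 to 0.98, and the 6 lines alone gave 0.84.

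Of all 8379 probe sets tested, 1.11% had signals that did not overlap between the groups of 5 arrays by source of the second chromosome. Gpdh1 and Treh are 2 of them by choice, and none of the 5 glycolytic members was. No member's groups separated by the source of the first or of the third chromosome, where 0.943% and 1.58% of probe sets did.

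**Figure D1:**
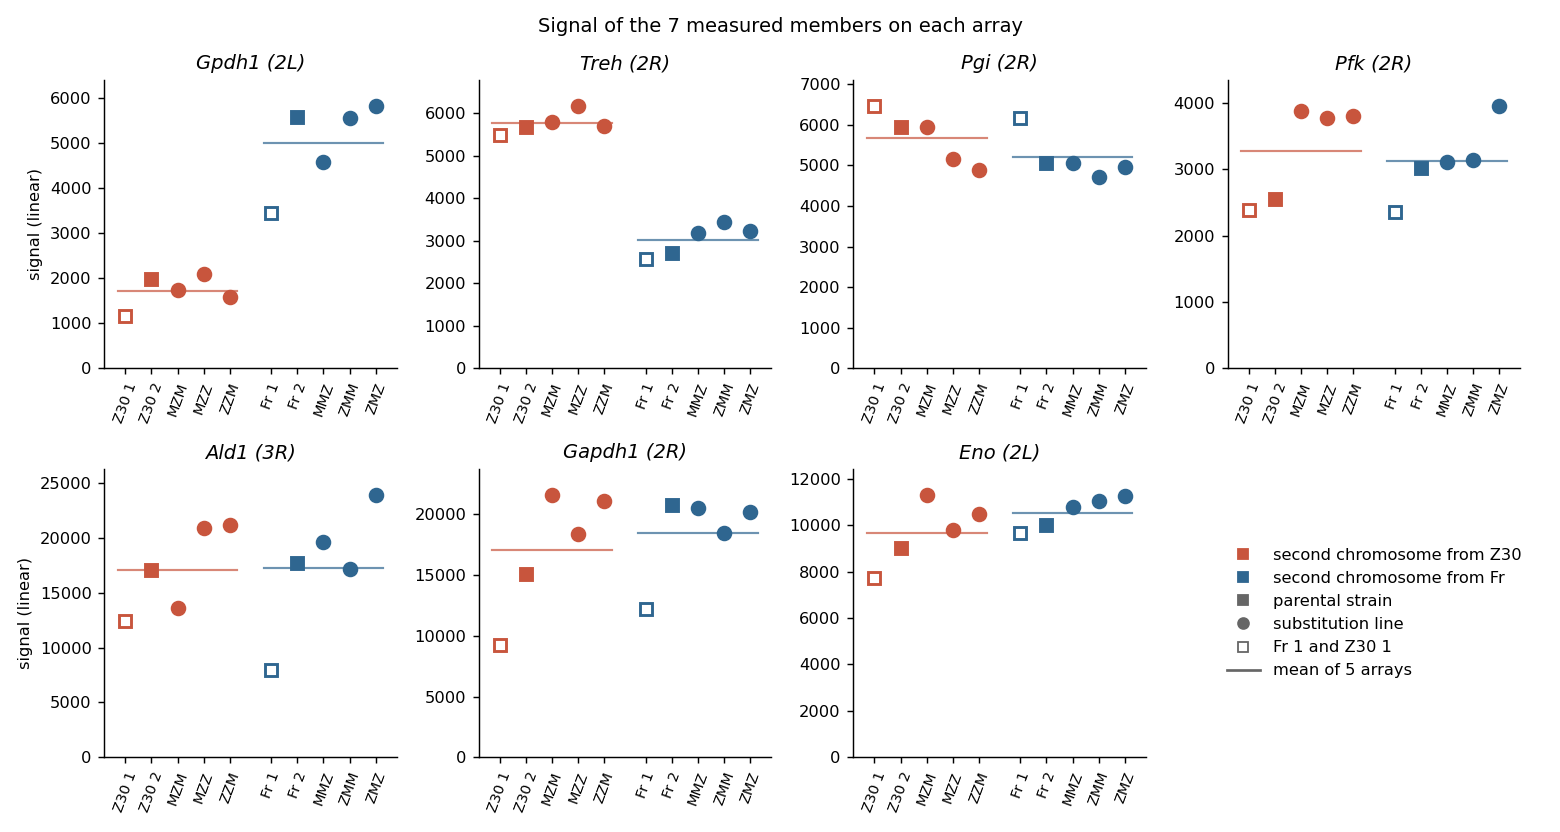
Signal (linear scale, from 0) of the 7 measured members on each of the 10 arrays, with the second chromosome from Z30 on the left and from Fr on the right. Horizontal lines are means of 5 arrays, squares are parental strains, circles are lines and open squares are Z30 1 and Fr 1. Gpdh1 lies at 1165 to 2092 with the Z30 chromosome against 3451 to 5827 with the Fr one and Treh at 5481 to 6170 against 2580 to 3433, while the groups of the other 5 genes overlap.

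The differences of Gpdh1 and Treh with the other chromosomes are a description as well, since a gene picked for following the second chromosome is unlikely to vary much with the others. With the first chromosome from Z30, Gpdh1 differed by 0.01 ± 0.23 log2 units and Treh by 0.07 ± 0.15 (SE). With the third, Gpdh1 differed by 0.07 ± 0.23 and Treh by 0.07 ± 0.15 (SE).

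The second chromosome's difference can also be read by the source of the first chromosome. The Gpdh1 difference was -1.81 and -1.94 log2 units in the pairs with the first chromosome from Z30 and -1.34 and -1.13 in those with it from Fr. For Treh the differences were 0.73 and 0.79 with the first chromosome from Z30 and 1.13 and 0.95 with it from Fr. No test is given for these differences between pairs, which come from the values that chose the genes. The pairs made of lines only, which use neither Z30 1 nor Fr 1, had -1.81 and -1.13 for Gpdh1. That all Gpdh1 pairs separate by the source of the first chromosome depends on averaging in Z30 1 and Fr 1. With Z30 2 and Fr 2 alone, 1977 on Z30 2 against 5827 in ZMZ is a smaller fold than 1739 in MZM against 5585 on Fr 2. For the other 5 members, the joint test of the 3 pairwise interactions (limma's moderated F test) made no call, with an adjusted p of 0.924 to 0.948. It called 0.0% of the 8379 probe sets (0 in number), with 331 at an unadjusted p under 0.05.

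**Figure D2:**
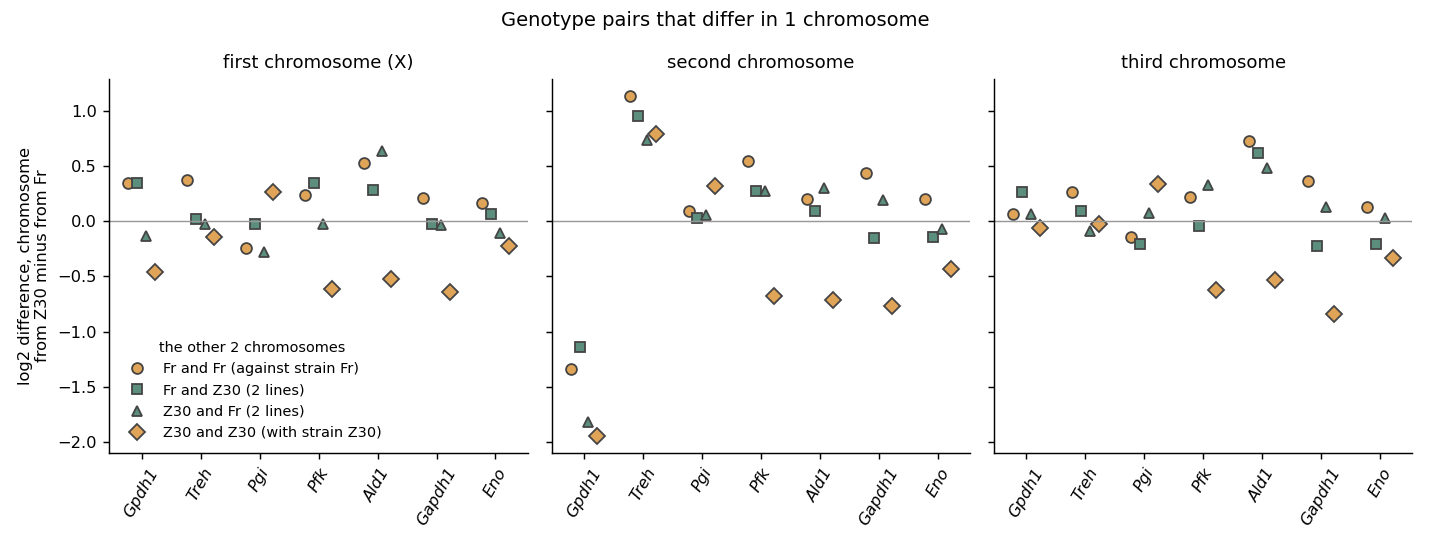
Log2 difference in signal between genotypes that differ in 1 chromosome, that chromosome from Z30 minus from Fr, for the 7 members (log2 axis). Each gene has 4 pairs per chromosome, marked by the sources of the other chromosomes, and strains with 2 arrays enter as their mean. All 4 pairs lie below 0 for Gpdh1 (-1.94 to -1.13) and above 0 for Treh (0.73 to 1.13) with the second chromosome.

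Each of the 5 glycolytic members had overlapping signals by source of the second chromosome. Pgi, which converts glucose-6-phosphate to fructose-6-phosphate, had signals of 6461 and 5935 on Z30 1 and Z30 2 and 5957, 5151 and 4899 in MZM, MZZ and ZZM, against 6175 and 5068 on Fr 1 and Fr 2 and 5059, 4721 and 4970 in MMZ, ZMM and ZMZ. The groups overlapped, and over all 10 arrays the highest signal was 1.37 times the lowest, against a median of 2.55 times over all tested probe sets. The log2 difference with the second chromosome from Z30 was 0.13 ± 0.16 (SE; 95% interval -0.23 to 0.49; adjusted p = 0.9999 in limma). All 4 pairs were above 0, by 0.03 to 0.32, a pattern of one sign that 13.4% of the tested probe sets showed for this chromosome.

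Pfk encodes phosphofructokinase, which commits sugar to glycolysis, and its highest signal was 1.67 times its lowest. It stood at 2385 and 2547 on Z30 1 and Z30 2 and at 3881, 3771 and 3803 in MZM, MZZ and ZZM, against 2361 and 3019 on Fr 1 and Fr 2 and 3112, 3144 and 3948 in MMZ, ZMM and ZMZ. With the second chromosome from Z30, which carries Pfk, the difference was 0.08 ± 0.22 log2 units (SE; 95% interval -0.41 to 0.57; adjusted p = 0.9999 in limma). The 3 highest signals with the Z30 chromosome and the highest with the Fr one all came from lines.

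Gapdh1 makes a main isoform of the dehydrogenase that yields the first energy-rich phosphate of glycolysis. It had 9280 and 15073 on Z30 1 and Z30 2 and 21582, 18418 and 21100 in MZM, MZZ and ZZM, against 12242 and 20772 on Fr 1 and Fr 2 and 20485, 18486 and 20174 in MMZ, ZMM and ZMZ. The lowest values in both groups were those of Z30 1 and Fr 1, and Z30 2 was the next lowest. With the second chromosome from Z30 Gapdh1 differed by -0.09 ± 0.27 log2 units (SE; 95% interval -0.68 to 0.51; adjusted p = 0.9999 in limma).

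Eno, the enolase near the end of the chain, had 7724 and 9006 on Z30 1 and Z30 2 and 11295, 9775 and 10500 in MZM, MZZ and ZZM, against 9642 and 10018 on Fr 1 and Fr 2 and 10762, 11028 and 11244 in MMZ, ZMM and ZMZ. Its highest signal was 1.46 times its lowest. It lies on 2L like Gpdh1, and with that chromosome from Z30 its log2 difference was -0.11 ± 0.16 (SE; 95% interval -0.47 to 0.25; adjusted p = 0.9999 in limma). It was -0.06 without Z30 1. No comparison with the Gpdh1 difference is drawn, since that difference chose the gene.

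Ald1, the aldolase that splits the sugar bisphosphate into trioses, lies on 3R and is set out by the third chromosome. It had 12469 and 17076 on Z30 1 and Z30 2 and 19663, 20939 and 23904 in MMZ, MZZ and ZMZ, against 7957 and 17751 on Fr 1 and Fr 2 and 13633, 17147 and 21161 in MZM, ZMM and ZZM. The groups overlapped, and the highest signal was 3.00 times the lowest, with the lowest value on Fr 1. The difference with the third chromosome from Z30 was 0.29 ± 0.29 log2 units (SE; 95% interval -0.35 to 0.93; adjusted p = 0.998 in limma). It was 0.12 without Fr 1, 0.16 without MZZ, 0.19 without ZMZ and 0.52 without ZZM. On the 8 arrays other than Z30 1 and Fr 1 it was 0.23, and in the 6 lines alone 0.55. The pairs in which MMZ was set against Fr, MZZ against MZM and ZMZ against ZMM had 0.73, 0.62 and 0.48, and Z30 against ZZM had -0.54.

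Summed marker signals of several cell types, though not of all, were low on Fr 1 and Z30 1, where Ald1 was lowest. Of 12 flight muscle markers 9 were measured, and their summed signal was 13235 on Z30 1 and 14656 on Fr 1, against 24582 to 71305 elsewhere, with the highest sum on ZMZ, where Ald1 was highest too. Most of that sum came from the myosin light chain genes Mlc1 and Mlc2, whereas TpnC4, a troponin C of flight muscle, was at or under the floor of 38.9 on all 10 arrays, and fln and Act88F had at most 47.2 and 293. Neuron marker sums were likewise lowest on Fr 1 (786), MZM (1039) and Z30 1 (1132) and highest on ZMZ (3378). Most of each sum came from nSyb, with 555, 939, 985 and 2959 on these arrays. The neuron marker elav did not follow, with its highest signal on Fr 1 (172) and its lowest on MZM (18.1), while brp was under the floor on Fr 1, MZM and Z30 1. Fat body and photoreceptor sums were also lowest on Z30 1 and Fr 1. Most of the fat body sum came from Yp1, Yp2 and Yp3. Yp1 was the brightest signal by which these arrays stood apart, so the low fat body sum partly restates that. The fat body marker fit did not follow, with 13152 on Z30 1 and 8458 on Fr 1 against 6234 to 21258 elsewhere. A scale difference of these arrays and a cell type difference cannot be told apart here. On MZM, where Ald1 was next lowest, the photoreceptor sum was the highest of all arrays (106129) and the fat body sum was 181374. Ovary sums went the other way, with 1994 on Z30 1 and 1951 on Fr 1 against 883 to 1396 elsewhere. Glia sums were 3207 on Z30 1 and 2931 on Fr 1, against 2302 to 3423 elsewhere. The part of these markers in the Ald1 values was not tested.

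The probe set shared by Tpi and CG1607 had 5439 and 5874 on Z30 1 and Z30 2 and 5565, 5270 and 4432 in MZM, MZZ and ZZM, against 4804 and 4579 on Fr 1 and Fr 2 and 4982, 4256 and 5670 in MMZ, ZMM and ZMZ. Its signal cannot be split between the genes, and its log2 difference with the third chromosome from Z30, which carries Tpi, was 0.20 (adjusted p = 0.998 in limma).

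Over the 4 effects, 20 tests were made on the 5 glycolytic members, and 0 passed an adjusted p of 0.05. Few probe sets passed anywhere, 0.0358% between the parents, 0.0597% with the first chromosome, 0.0358% with the second and 0.0955% with the third, so the members' count is read against a background near 0. The SEs of the 5 glycolytic members with a chromosome were 0.16 to 0.29 log2 units.

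Between the parental strains, Gapdh1 had a log2 difference of -0.43 ± 0.40 (SE; 2 arrays against 2; adjusted p = 0.9998 in limma), with 9280 and 15073 in Z30 against 12242 and 20772 in Fr. With arrays compared within their number the difference was -0.40 for the arrays numbered 1 and -0.46 for those numbered 2, and the fit with the replicate number as a block, which also sets Z30 1 and Fr 1 apart from Z30 2 and Fr 2, called it lower in Z30 (adjusted p = 0.0217 in limma). That fit called 6.58% of all tested probe sets. It is left with 1 residual degree of freedom, so its estimate of spread leans on the trend over genes. Without the trend the blocked adjusted p of Gapdh1 was 0.557. Leaving out 1 array without the block gave -0.08 without Z30 1, -0.78 without Z30 2, -0.81 without Fr 1 and -0.05 without Fr 2.

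Eno differed by -0.24 ± 0.28 log2 units between the parents, Pfk by -0.11 ± 0.28, Pgi by 0.15 ± 0.28 and Ald1 by 0.30 ± 0.44 (SE; adjusted p = 0.9998 for each in limma), and none was called with the replicate block (adjusted p = 0.209 to 0.885). The Ald1 difference rested on Fr 1 and was -0.28 without it. Without Z30 1 the difference was -0.13 for Eno, and without Fr 1 it was -0.29 for Pfk and 0.29 for Pgi. For Ald1 the difference was 0.65 between the arrays numbered 1 and -0.06 between those numbered 2. With Fr 1 and Z30 1 as a block, 0.107%, 0.155% and 0.406% of probe sets were called with the first, the second and the third chromosome, and none of the 5 glycolytic members was among them.

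Pfk, Ald1 and Gapdh1 were low on both arrays that stood apart. Within the groups by source of the second chromosome, Gpdh1 and Treh were also lowest on Z30 1 and on Fr 1. Gpdh1 was at 1165 on Z30 1 and 3451 on Fr 1, and Treh at 5481 and 2580. Gpdh1 was above its mean over the 10 arrays on Fr 1 (0.27) and Treh on Z30 1 (0.40), a sign that follows from the pattern that chose them. Measured from each gene's mean over the 10 arrays, the median of the 5 glycolytic members was -0.40 log2 units on Z30 1 and -0.41 on Fr 1, against -0.16 to 0.28 on the other 8. The median of all tested probe sets was 0.01 to 0.07 on every array. Ald1 at -1.05 on Fr 1 and Gapdh1 at -0.89 on Z30 1 lay farthest below, while Pgi was above its mean on both, by 0.26 on Z30 1 and 0.19 on Fr 1. Eno was at -0.38 on Z30 1 and -0.06 on Fr 1.

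Other genes of sugar metabolism were taken from 5 lists with 37 genes, of which 28 were measured and 21 passed the filter on dim signal. None of the 21 was called between the parents or with any chromosome in limma. With the replicate block 4 of the 21 passed in the parental comparison (1 higher in Z30 and 3 lower), in a fit that called 6.58% of all tested probe sets. None of the 4 passed without the variance trend, and with the block for Fr 1 and Z30 1 none of the 21 passed for a chromosome.

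Closest to Gpdh1 is the glycerol phosphate list, in which 5 of 6 genes were measured and 1 passed the filter. Its paralogs Gpdh2 and Gpdh3 had signals of 10.8 to 74.8 and 6.3 to 90.3 over the 10 arrays, near the floor of 38.9. The paralogs of the mitochondrial partner enzyme, Gpo2 and Gpo3, had 6.3 to 15.1 and 12.4 to 117. Gk1, a glycerol kinase that offers another route to glycerol phosphate, had a log2 difference of -0.25 ± 0.29 with the first chromosome from Z30 (SE; adjusted p = 0.999 in limma) and -0.17 ± 0.29 with the second.

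Closest to Treh is the list of trehalose and glycogen genes, with 8 of 8 measured and 7 tested. With the second chromosome from Z30, 0 of 7 were called and all 7 differences were above 0, where 52.3% of all tested probe sets were below 0. Their median was 0.17 log2 units, against -0.02 over all tested probe sets. With the third chromosome from Z30 6 of 7 were below 0, and with the first and between the parents 4 of 7 were. Glycogen synthase (Glys) had 0.53 ± 0.20 and trehalose phosphate synthase (Tps1), which makes the substrate of Treh, 0.09 ± 0.20 (SE; adjusted p = 0.9999 for each in limma). The brightest probe set of the trehalose transporter gene Tret1-1 had 0.33 and its other one -0.35.

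Between the parents, UGP, which makes the UDP-glucose used for trehalose and glycogen, had 5985 and 6666 in Z30 against 3273 and 4790 in Fr. Its log2 difference was 0.67 ± 0.31 (SE; adjusted p = 0.9998 in limma), it was higher in Z30 with the replicate block (adjusted p = 0.00572), and the blocked adjusted p without the trend was 0.361. Without Fr 1 the difference was 0.40. Glys differed by 0.59 ± 0.28 and the branching enzyme gene AGBE by -0.37 ± 0.27, and neither was called in either fit.

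Among 5 measured genes of pyruvate use and gluconeogenesis, the 2 for phosphoenolpyruvate carboxykinase, which opens the way from oxaloacetate back to sugar, had the largest parental differences. Pepck1 had 2755 and 1916 in Z30 against 7058 and 5134 in Fr, a log2 difference of -1.39 ± 0.32 (SE; adjusted p = 0.517 in limma). Pepck2 had 105 and 97.5 in Z30 against 348 and 203 in Fr, a difference of -1.39 ± 0.60 (adjusted p = 0.9998). Both were lower in Z30 with the replicate block (adjusted p = 3.3e-10 and 0.0378), and without the trend the blocked adjusted p was 0.0801 for Pepck1 and 0.0996 for Pepck2.

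The lines spread Pepck1 more widely than the parents did. It had 198 in ZZM, 1327 in ZMZ, 2175 in MZM, 2686 in ZMM, 3575 in MZZ and 4479 in MMZ. With the first chromosome from Z30 its difference was -1.63 ± 0.58 log2 units (SE; adjusted p = 0.999 in limma). It leaned on ZZM, with -0.92 without that array, and was -2.60 in the 6 lines alone. Pepck1 and Pepck2 lie on 2R, and with the second chromosome from Z30 they differed by -1.07 ± 0.58 and -1.12 ± 0.51 (SE; adjusted p = 0.9999 for each in limma). With the third, Pepck1 had 0.82 ± 0.58 and Pepck2 -0.54 ± 0.51. The pyruvate dehydrogenase subunit gene muc had -0.42 ± 0.30 between the parents, or -0.24 without Z30 1 and -0.22 without Fr 2.

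In the other steps of glycolysis 7 of 10 genes were measured and 5 tested. Pgk, which follows Gapdh1 in the chain, differed by -0.37 ± 0.32 log2 units between the parents (SE; adjusted p = 0.9998 in limma), or -0.10 without Fr 2, -0.15 without Z30 1 and -0.65 without Fr 1. The hexokinase gene Hex-A had 0.50 ± 0.36 with the first chromosome from Z30 (adjusted p = 0.999), on which it lies, and Hex-C had 0.46 ± 0.22 with the second (adjusted p = 0.9999), on which it lies. Hex-A was lowest on MZM and Fr 1, at 450 and 466, against 842 to 1582 elsewhere, and its difference was 0.29 without MZM and 0.20 without ZZM.

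Of the genes for malate and NADPH enzymes 3 of 6 were measured. Malic enzyme (Men) had 1660 and 2260 in Z30 against 2537 and 4857 in Fr for the brightest of its probe sets, a log2 difference of -0.86 ± 0.38 (SE; adjusted p = 0.9998 in limma). With the replicate block it was lower in Z30 (adjusted p = 0.00246, or 0.256 without the trend), while its other probe set had -0.02. The difference was -0.39 without Fr 2 and -1.33 without Fr 1. Idh had -0.17 ± 0.15 with the first chromosome and Mdh1 0.16 ± 0.30 between the parents, with an adjusted p of 0.999 or more in limma.

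**Figure D3:**
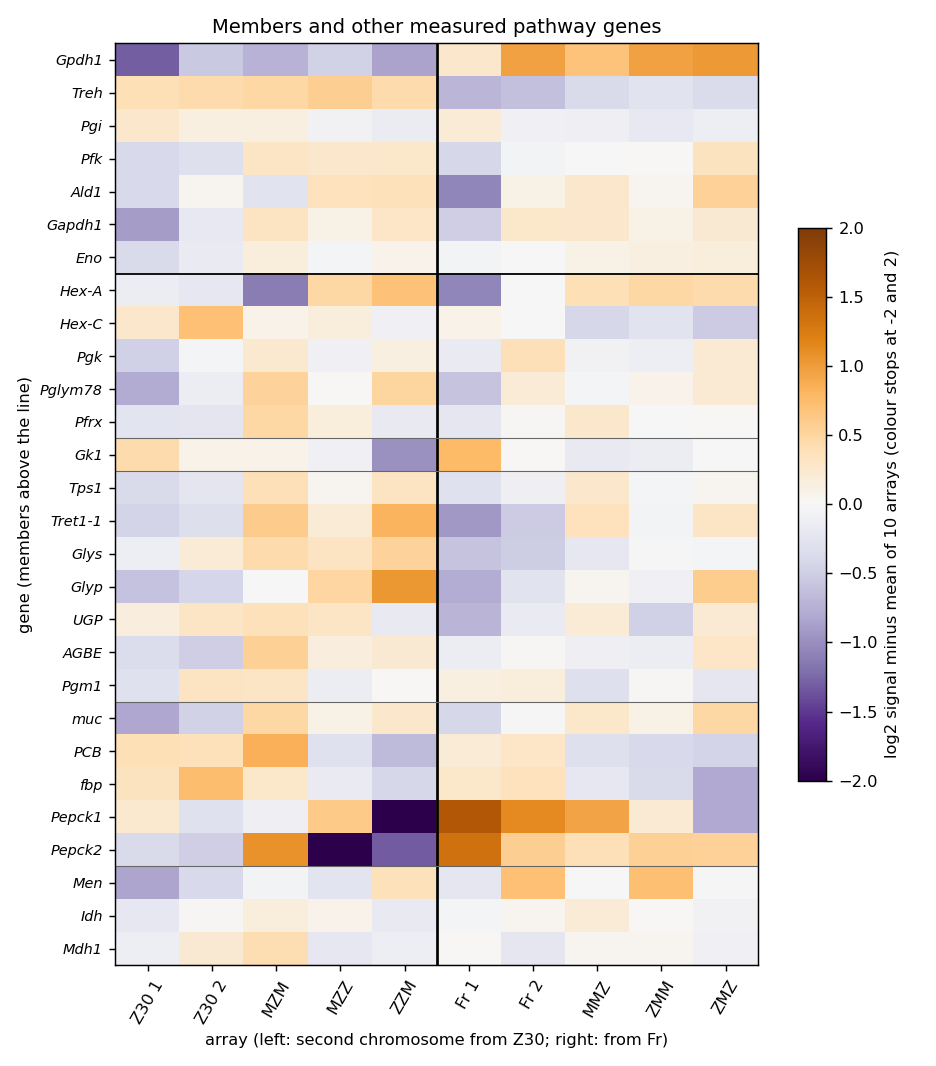
Log2 signal minus the gene's mean over the 10 arrays, for the 7 members (top) and 21 other pathway genes that passed the filter, with colour ending at -2 and 2. Arrays with the second chromosome from Z30 are left of the line and those with it from Fr right of it. Gpdh1 and Treh change side at that line, while low values on Z30 1 and Fr 1 are shared by Pfk, Ald1, Gapdh1 and several other genes.

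The genes whose pattern over the 10 arrays was most like that of Gpdh1 were Uhg1, a host gene of small nucleolar RNAs (Pearson r = 0.94), Reph (0.92), sqa (0.90), CG5149 (0.89) and Scgalpha (0.86), out of 7471 single-gene probe sets. Those most like Treh were the cytochrome P450 gene Cyp6a17 (0.94), the sodium pump subunit gene nrv2 (0.92), CG17224 (0.91), the lysyl oxidase gene Loxl2 (0.91) and the ATP synthase subunit gene ATPsynF (0.91). All 10 lie on the second chromosome. They were picked for likeness to genes chosen for following that chromosome, so this count is not read as a result. Likeness here is a description over arrays that share lines and scale.

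Uhg1 had signals of 2.0 to 15.9 with the second chromosome from Z30 and 433 to 965 with it from Fr. Cyp6a17 had 340 to 2140 with the Z30 chromosome and 4.2 to 32.4 with the Fr one. Signals of nrv2 were 348 to 994 with the Z30 chromosome and 126 to 258 with the Fr one. Groups overlapped for Reph, with 168 to 364 against 330 to 766, and for sqa, with 107 to 179 against 151 to 369.

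Cell type markers were read beside the groups by source of the second chromosome, and their part in the Gpdh1 and Treh values was not tested. Of 5 glial markers 4 were measured, with summed signals of 2921 to 3423 with the Z30 chromosome and 2302 to 2931 with the Fr one. Without nrv2, which follows that chromosome itself, the sums of the other 3 were 2174 to 2695 and 2087 to 2750. Flight muscle sums were 13235 to 57391 with the Z30 chromosome and 14656 to 71305 with the Fr one, and those of 6 fat body markers 98475 to 189774 and 89742 to 185026. Photoreceptor sums, from 4 of 7 markers, were 54857 to 106129 with the Z30 chromosome and 49635 to 102530 with the Fr one. Neuron sums, also with 4 of 6 measured, were 1039 to 2990 and 786 to 3378, and those of 5 ovary markers 883 to 1994 and 981 to 1951. For glia the overlap rests on Fr 1, at 2931 against 2921 on Z30 2, since the other 4 arrays with the Fr chromosome had 2302 to 2690.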

How the data were processed

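Per the labels, the arrays held RNA from female heads. The deposited values are linear intensities, 1 per probe set and array. How they were computed is not given in the sources used here. Their 2% trimmed mean lay at 500.07 to 500.11 on every array, so the authors had scaled the arrays before deposit, which was kept.

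Signals under the pooled 20th percentile (38.9) were set to that floor before log2, which understates changes of dim genes. After removal of 44 control probe sets and of those with a mean at or under the 40th percentile, 8379 of 13966 were tested. All 7 measured members passed this filter. Of the 13966, 12443 had 1 gene, 327 several and 1196 none, from the platform annotation, with symbols of 12394 updated to the Release 6 annotation through Entrez identifiers.

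limma 3.58.1 in R 4.3.3 (lmFit, eBayes with trend, Benjamini-Hochberg over the 8379, threshold 0.05) compared Z30 with Fr on 4 arrays (2 residual degrees of freedom) and fitted the 3 chromosome sources additively on 10 arrays (6 residual degrees of freedom). The interaction test was added after values were seen, and Gpdh1 and Treh, planned to be tested with the first and the third chromosome, are given there as description. The fits recovered known differences when tested on simulated data. Those differences were larger than any of the members' and were set in bright probe sets, with independent noise and no arrays that stood apart. The simulation therefore does not measure what could be detected here.

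The members, lists and naming rule were chosen with earlier results of these data known. The rule names all members, list genes that passed a test, up to 3 per list with the largest difference, and the 5 genes most like Gpdh1 and Treh. Where a listed gene had more than 1 probe set, the brightest was used. Tps1, Tret1-1, Gpdh2, Gpdh3, Gpo2, Gpo3, the named markers and the neighbours of Gpdh1 fall outside it and were named after their values were seen. Alternatives were another scaling, floor, filter or variance model, blocks, subsets of arrays and the leaving out of each array. The precision is limited by the number of arrays.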

Additional observations from a re-analysis of the deposited data

Results flagged for a closer look

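Groups of 5 arrays by source of a chromosome were screened for a sample far from the others, measured as the gap to its nearest neighbour over the whole log2 range (limit 0.71). Of 42 groups, 4 had such a sample, and chance flags about 1 in 20. All 4 were the array Fr 1. Gapdh1 on Fr 1 (12241.6) was the lowest value among arrays with the first, the second and the third chromosome from Fr, with gaps of 0.72, 0.78 and 0.73 of the range. These groups share that array and count as 1 observation. Pgi on Fr 1 (6174.6) was the highest among arrays with the second chromosome from Fr, with a gap of 0.74 of the range. Fr 1 is 1 of the 2 arrays that stood apart, and the part of that in these values was not tested.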

How the results depend on the processing

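The number of arrays limits what could be detected, and no line had a replicate. Over the alternatives run, the second chromosome's log2 difference stayed between -1.68 and -1.45 for Gpdh1 and between 0.84 and 0.98 for Treh. As reported, limma called 3 probe sets between the parents and 5, 3 and 8 with the first, the second and the third chromosome. Counts of calls between the parents were 0 without the filter and 0 without the trend (646 and 311 probe sets at an unadjusted p under 0.05), 551 with the replicate block, 47 with the replicate block and no trend (added after seeing the data) and 7 to 42 without single arrays. For the first chromosome they were 2 without the filter, 0 without the trend, 9 with a block for Fr 1 and Z30 1, 0 on the 8 other arrays, 0 on the 6 lines (212, 275 and 736 at an unadjusted p under 0.05 for the counts of 0) and 0 to 5 without single arrays. For the second they were 7 after quantile normalization, 1 without the filter, 13 with the block, 7 on the 8 arrays, 0 on the lines (342 at an unadjusted p under 0.05) and 2 to 6 without single arrays. For the third they were 3 without the filter, 34 with the block, 3 on the lines and 3 to 9 without single arrays. Of the 21 other pathway genes, 4 were called between the parents with the replicate block, where 6.58% of all tested probe sets were, and 0 without it. The labels do not say that like-numbered parental arrays are paired. Over the 8379 probe sets, the differences between numbers 1 and 2 correlated between Z30 and Fr (r = 0.64). The arrays numbered 1 are the ones that stood apart, so a pairing and their shared difference in scale cannot be told apart. In the blocked fits no member test other than that of Gapdh1 between the parents changed its call.

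Some uncalled differences changed sign, and the cause was not tested. Not all were near 0, since Ald1 had 0.30 between the parents and Gk1 -0.25 with the first chromosome as reported. After quantile normalization the sign changed for Gpdh1 (-0.013) and Eno (0.011) with the first chromosome. In the 6 lines it changed for Treh (-0.002) and Pfk (0.16) with the first chromosome. It also changed there for Ald1 (0.20) and Gapdh1 (0.019) with the second, and Pgi (-0.068) and Pfk (0.14) with the third. Between parental arrays numbered 1 Pfk had 0.014, and between those numbered 2 Ald1 had -0.056. Without single arrays, the ranges with the first chromosome were -0.10 to 0.17 for Gpdh1, -0.028 to 0.12 for Treh, -0.16 to 0.006 for Pgi, -0.21 to 0.081 for Pfk, -0.28 to 0.013 for Gapdh1, -0.094 to 0.038 for Eno and -0.43 to 0.023 for Gk1. With the second they were -0.037 to 0.30 for Pfk, -0.24 to 0.076 for Ald1 and -0.23 to 0.087 for Gapdh1. With the third they were -0.045 to 0.19 for Gpdh1, -0.062 to 0.097 for Pgi, -0.22 to 0.067 for Pfk and -0.30 to 0.014 for Gapdh1. Between the parents they were -0.29 to 0.062 for Pfk, -0.28 to 0.88 for Ald1 and -0.007 to 0.34 for Mdh1.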

Other observations

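None of the genes beside Gpdh1 on 2L was called with the second chromosome from Z30. The 3 nearest genes tested on each side had log2 differences of -1.78 to -0.09, 6 of 6 below 0, where 52.3% of all tested probe sets were below 0. CG9021, the second on one side, had -1.78 ± 0.44 and CG9044, the nearest on the other, -0.67 ± 0.19 (SE; adjusted p = 0.498 and 0.608 in limma, 0.152 and 0.288 with Fr 1 and Z30 1 as a block). Both were named after their values were seen. The 6 nearest genes of Treh on 2R had 4 differences above 0 and 2 below, from -0.32 to 0.33.

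Pfk separated the parental strains from the lines. Its 4 signals in Z30 and Fr were 2361 to 3019 and its 6 signals in the lines 3112 to 3948, with no overlap. Of all tested probe sets, 4.06% did not overlap between the strains and the lines. The gap was small, and among the members no other gene separated these groups. This was noticed in the values and was not tested.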
